A study of Mus musculus with 20 samples.

Results

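Lmo4, Cux1, Cux2, Lpl, Inhba, Ptn, Dkk3, Hspb3, Cited2 and Chn2 are genes used as markers of callosal projection neurons. These 10 genes were taken by name from the 55487 genes of the deposited count table. The rule uses no measured value, but the set was proposed with earlier results of these data known. The question put to them was how much RNA of callosal marker genes is found in another class of cortical neuron, in which compartment, and whether its level differed with the Bcl11b genotype. Bcl11b (also called Ctip2) encodes a zinc finger transcription factor of that other class.

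The study sequenced RNA from mouse subcerebral projection neurons at postnatal day 1 in 20 libraries, with 5 in each of 4 groups. The groups were WT somata and somata labelled KO, both from cortex, and WT growth cones and growth cones labelled KO, both from brainstem and spinal cord. The labels give the genotype as WT or Bcl11b KO and give no allele, driver, age beyond the day, or number of animals pooled. P-values here therefore measure the spread between libraries, which the labels do not tie to separate animals. Soma libraries held 18962308 to 36059112 counts (WT) and 35243688 to 51205154 (labelled KO), and growth cone libraries 26382991 to 29323028 (WT) and 21657575 to 27723067 (labelled KO). The labels give 1.8 to 3.1 ng of input RNA for soma libraries and 0.19 to 3.1 ng for growth cone libraries.

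Callosal projection neurons send axons through the corpus callosum to the other cerebral hemisphere, while subcerebral neurons send axons to the brainstem and spinal cord. Most callosal neurons lie in the upper layers of the cortex, but some share layer V with subcerebral neurons. The marker genes encode nuclear regulators (Lmo4, Cux1, Cux2, Cited2), secreted signals (Ptn, Inhba, Dkk3), a secreted lipase (Lpl), a small heat shock protein (Hspb3) and an inhibitor of Rac signalling (Chn2). A growth cone is the motile tip of a growing axon, and it holds messenger RNAs away from the cell body.

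Sequence upstream of the start site is shown for 3 of the genes that were higher in growth cones (Lmo4, Ptn and Cited2), for Inhba, which holds a TGACCA match, and for Hspb3, whose levels spread widely. Each run is on the strand of its gene, 5′ to 3′, from the RefSeq promoter table of build GRCm38.p6. It was trimmed to the longest run, of at most 250 bases, that lies outside the GENCODE M21 exons of any gene. Capitals mark TGACCA (the hexamer recognised by Bcl11a, the paralogue of Bcl11b), CCAAT and TATAAA, each searched on both strands. The windows are chr3:144205256-144205505 for Lmo4 (minus strand), chr6:36810221-36810429 for Ptn (minus), chr10:17722978-17723217 for Cited2 (plus), chr13:16011601-16011850 for Inhba (plus) and chr13:113663677-113663926 for Hspb3 (minus).
Lmo4: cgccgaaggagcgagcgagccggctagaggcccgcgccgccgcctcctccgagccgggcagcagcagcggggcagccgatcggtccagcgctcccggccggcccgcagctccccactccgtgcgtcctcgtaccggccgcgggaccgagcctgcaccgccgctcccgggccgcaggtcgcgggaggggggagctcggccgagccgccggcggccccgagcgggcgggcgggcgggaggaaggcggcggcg
Ptn: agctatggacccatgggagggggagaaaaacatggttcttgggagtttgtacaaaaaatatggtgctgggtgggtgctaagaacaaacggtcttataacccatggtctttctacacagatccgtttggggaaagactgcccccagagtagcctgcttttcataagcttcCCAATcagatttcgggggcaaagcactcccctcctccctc
Cited2: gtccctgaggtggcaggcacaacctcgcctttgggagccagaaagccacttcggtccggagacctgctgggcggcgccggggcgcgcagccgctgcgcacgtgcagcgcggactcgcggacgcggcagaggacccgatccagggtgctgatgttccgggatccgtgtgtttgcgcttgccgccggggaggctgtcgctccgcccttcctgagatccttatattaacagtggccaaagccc
Inhba: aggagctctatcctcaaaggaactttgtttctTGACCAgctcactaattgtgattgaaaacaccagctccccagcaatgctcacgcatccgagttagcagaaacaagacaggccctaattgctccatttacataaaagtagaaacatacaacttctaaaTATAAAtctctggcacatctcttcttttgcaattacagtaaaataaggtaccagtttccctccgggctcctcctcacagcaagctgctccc
Hspb3: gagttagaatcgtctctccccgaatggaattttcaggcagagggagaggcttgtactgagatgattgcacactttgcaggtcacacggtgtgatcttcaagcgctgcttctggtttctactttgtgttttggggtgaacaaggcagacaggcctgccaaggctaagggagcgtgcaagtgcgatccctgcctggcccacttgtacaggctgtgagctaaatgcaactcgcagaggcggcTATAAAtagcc
RefSeq held promoter windows for 8 of the 10 genes, Lpl and Dkk3 being named only, and matches are given first for the window nearest the 5′ end of each gene. Inhba held 1 TGACCA, 218 to 213 bases before its start site, and 1 TATAAA, 91 to 86 bases before it. Hspb3 held TATAAA 11 to 6 bases before its start site, and Ptn held CCAAT 81 to 77 bases before it. At start sites farther inside the gene, 1 window of Cux2 held TATAAA and 1 of Chn2 held CCAAT. Among 32851 mouse windows of 250 bases, 11.4% held TGACCA, 33.8% CCAAT and 12.4% TATAAA. The windows of Lmo4 and Cited2 held none of these letters in that order, and were 82.4% and 66.8% G or C with 44 and 26 CpG dinucleotides. The median over all windows was 52.4% with 6 CpG. A match is a description of letters and not a measured binding site.

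The targeted gene was read first, as a check of the labels. Bcl11b stood at 700 ± 130 CPM (counts scaled to library size, TMM over all 20 libraries, SD, n = 5) in WT somata and at 1151 ± 56.6 CPM in somata labelled KO, and the groups did not overlap. In growth cones it was 101 ± 19.3 CPM in WT and 102 ± 35 CPM in libraries labelled KO. The Bcl11b count was thus not lower in libraries labelled KO. In somata it was higher, by 0.71 ± 0.12 (log2 fold change ± SE, edgeR quasi-likelihood test, Benjamini-Hochberg adjusted p = 0.0153). That call was lost with all 20 libraries in the fit (adjusted p = 0.279) and with the experiment number as a block (adjusted p = 0.162). The labels do not say which exons were removed, so a gene-level count may include RNA from outside a deleted part. An exchange of labels between the genotypes was not tested, and it would turn the direction of every genotype difference given here. The groups are therefore called labelled KO throughout.

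Subcerebral identity markers were present in the somata. All 10 listed markers averaged over 1 CPM there, and their summed level was 1505 to 1982 CPM in WT somata and 1621 to 1872 CPM in somata labelled KO. The sum over the callosal genes was 349 to 463 CPM in WT somata and 336 to 502 CPM in somata labelled KO. In growth cones the callosal sum was 1199 to 1484 CPM in WT and 1184 to 1434 CPM in libraries labelled KO, above every soma library, while the subcerebral sum was lower, at 661 to 967 and 656 to 994 CPM. Ptn and Lmo4 made up most of that callosal sum. They averaged 574 and 413 of 1335 CPM in WT growth cones, and 547 and 418 of 1300 CPM in those labelled KO. In WT somata they averaged 186 and 40.7 of 396 CPM. The means of Dkk3 and Chn2 were lower in growth cones than in somata of each genotype.

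**Figure D1:**
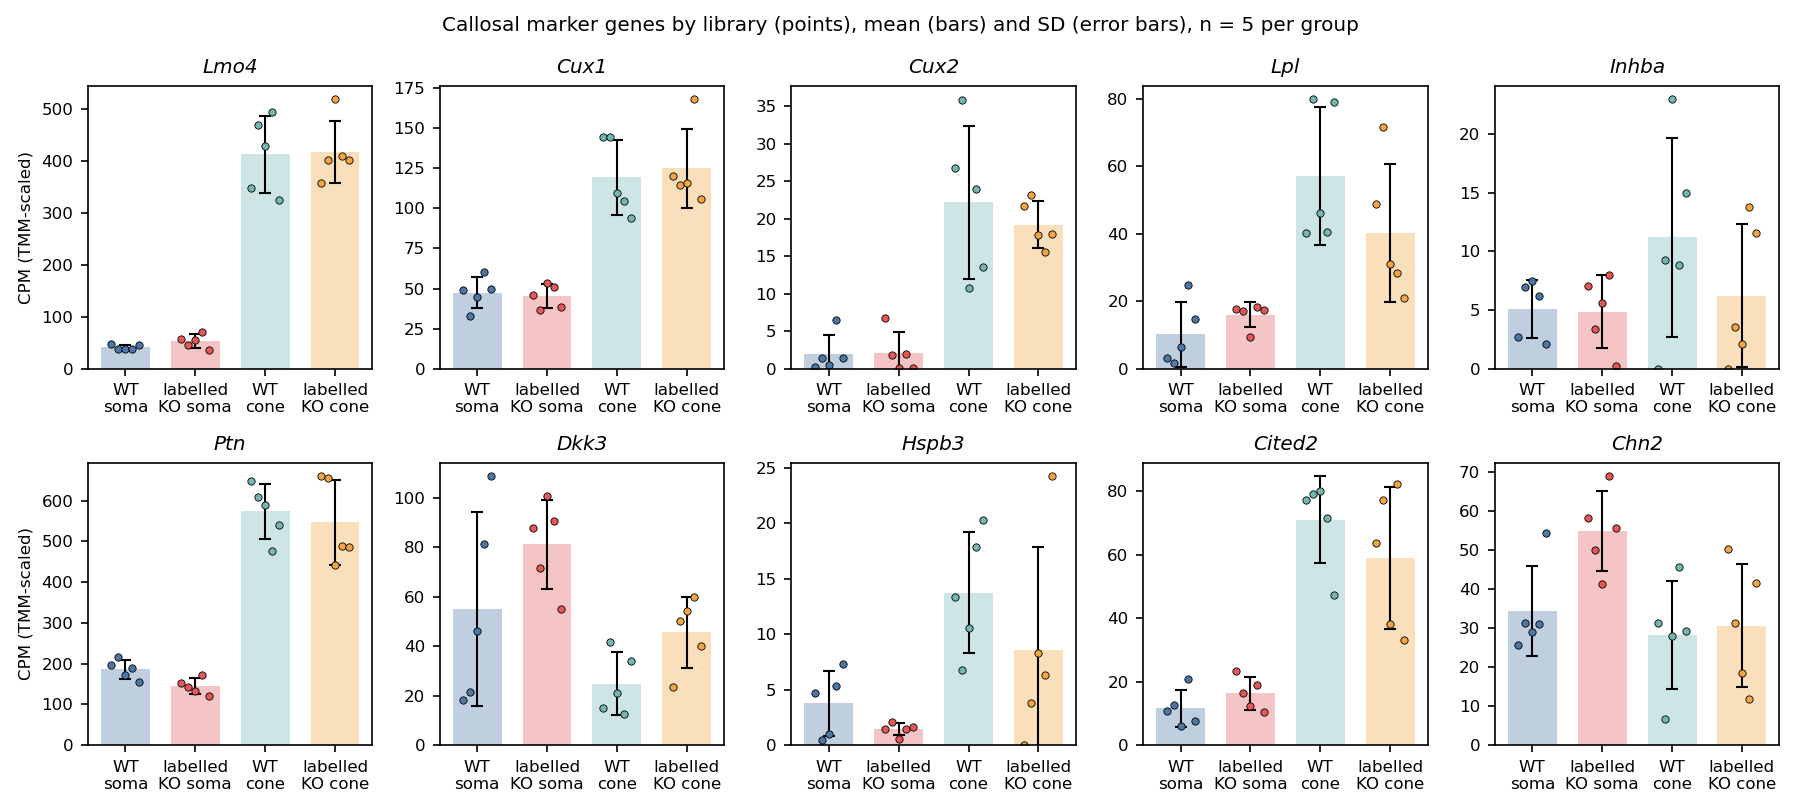
Level of each callosal gene in CPM (vertical axis, starting at 0) in 4 groups of 5 libraries (horizontal axis), with points for libraries, bars for means and error bars for SD. Lmo4, Cux1, Cux2, Lpl, Ptn and Cited2 have every growth cone library above every soma library of the same genotype, and none of the 10 genes separates libraries labelled KO from WT in either compartment.

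Of the 10 genes, 6 were higher in WT growth cones than in WT somata (Lmo4, Cux1, Cux2, Lpl, Ptn and Cited2) and 0 were lower. The same 6 were higher in growth cones labelled KO than in somata labelled KO, where Dkk3 was lower. Over all genes tested the comparison called 42.8% in WT (23.1% higher, 19.7% lower) and 38.6% in libraries labelled KO (21.6% higher, 17.0% lower), so calls in both directions were common. All 6 genes also had no overlap between the groups in the higher direction, which held for 19.8% of all genes in WT and 17.9% in libraries labelled KO. The median log2 difference over the 10 genes was 1.80 in WT and 1.74 in libraries labelled KO, beside medians over all tested genes of 0.07 and 0.11. With upper-quartile scaling those all-gene medians became 0.28 and 0.31, and the split of calls in WT moved from 3500 higher and 2976 lower to 3990 and 2347. In libraries labelled KO it moved from 3328 and 2620 to 3784 and 2128.

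Compartment cannot be told apart from tissue, input RNA or experiment number in this design, since growth cones carry the experiment numbers 7 to 11 and somata 12 to 26. In bulk RNA a larger share of cells of a type and more RNA per cell cannot be told apart either. Markers of other cells moved with the compartment. Of 9 astrocyte and radial glia markers, 8 were higher in WT growth cones, and their sum was 33.7 to 282 CPM in WT somata and 1696 to 2531 CPM in WT growth cones. Oligodendrocyte markers summed to 59.9 to 110 CPM in WT somata and 457 to 2089 CPM in WT growth cones. Interneuron markers summed to 122 to 202 and 647 to 902 CPM. A gene that passed the count filter only through the growth cones had little room to be lower there, so counts are given over genes that also passed it within somata. They were 4 of 6 higher for oligodendrocyte markers and 7 of 8 for interneuron markers.

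Markers from outside the cortex also moved. Hindbrain and spinal cord markers summed to 0.172 to 11.5 CPM in WT somata, where Hoxc6, Hoxd4, Chat, Pax2 and Lbx1 were at 0, and to 93.9 to 191 CPM in WT growth cones, where Chat was at 0. Of these 12 genes, 1 passed the filter within somata, so no count of calls is given for them. Vessel and blood markers summed to 3.10 to 23.9 and 246 to 509 CPM, with 2 of 3 higher among those that passed within somata. Microglia markers summed to 3.42 to 92.7 and 41.8 to 72.8 CPM, with 1 of 6 higher. In libraries labelled KO the sums in somata and growth cones were 138 to 361 and 1770 to 2277 CPM for astrocyte and radial glia markers, and 67.6 to 98.3 and 502 to 1497 CPM for oligodendrocyte markers. They were 0.0725 to 13.0 and 53.1 to 200.3 CPM for hindbrain and spinal cord markers. The part of these cells in the levels of the callosal genes was not tested.

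**Figure D2:**
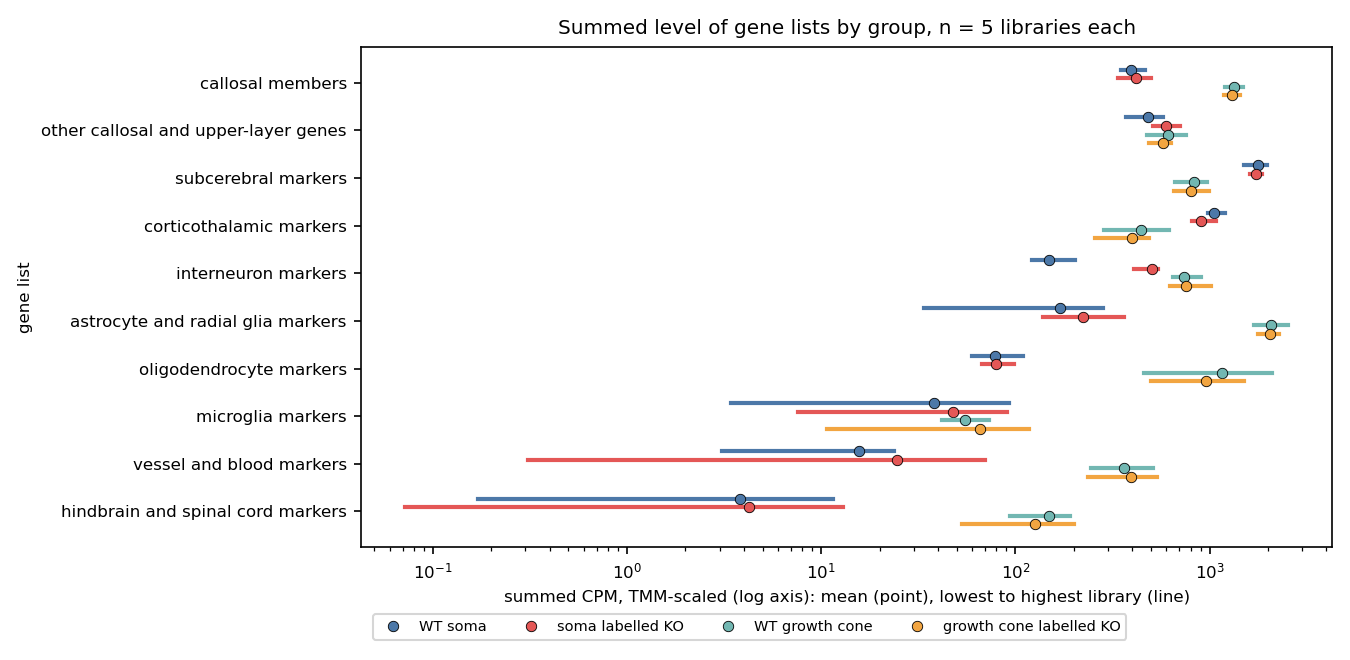
Summed CPM on a log axis (horizontal) of the 10 callosal genes and of 9 marker lists (vertical), with points for the mean of 5 libraries and lines from the lowest to the highest library. The callosal sum is higher in growth cones, as are the sums of astrocyte, oligodendrocyte, interneuron, vessel and hindbrain markers. The sums of subcerebral and corticothalamic markers are lower there. Sums of the other callosal and upper-layer genes overlap between compartments, at 373 to 576 CPM in WT somata and 479 to 754 CPM in WT growth cones. In libraries labelled KO they are 511 to 706 and 485 to 635 CPM. Microglia sums overlap as well. Ptn and Lmo4 average 574 and 413 of the 1335 CPM of the callosal sum in WT growth cones. Sla alone averages 854 of the 1054 CPM of the corticothalamic sum in WT somata, and 471 of 899 CPM in somata labelled KO. Of 8 corticothalamic genes tested between compartments, 2 are called higher and 1 lower in WT growth cones. In libraries labelled KO 2 are called higher and 3 lower.

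Lmo4 encodes a LIM-only adaptor that joins transcription factors to the LDB proteins, and it lies on chromosome 3 (GRCm38 144188530 to 144205220, minus strand). Its level was 46.4, 36.8, 36.8, 37.8 and 45.8 CPM in WT soma libraries 12, 14, 22, 25 and 26. In soma libraries 14, 15, 22, 25 and 26 labelled KO it was 57.1, 44.6, 54.2, 71.0 and 35.8 CPM. In growth cone libraries 7 to 11 it was 349, 471, 429, 494 and 325 CPM in WT and 358, 402, 519, 411 and 402 CPM in those labelled KO. Every growth cone library stood far above every soma library, while the genotypes overlapped in both compartments. The difference between compartments was 3.39 ± 0.16 on the log2 scale in WT (10.5-fold, adjusted p = 7.55e-08), and it was 3.07 ± 0.20 in libraries labelled KO (8.43-fold, adjusted p = 8.38e-07). Values below for other genes follow the same order of libraries.

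In both genotypes, growth cones had 2 of 7 LIM-only and LDB partner genes higher and 3 lower. Lmo1, another LIM-only gene, was higher in WT growth cones by 1.97 ± 0.17 (adjusted p = 3.44e-06). Lmo3 was lower, with a difference of -2.03 ± 0.14 (adjusted p = 7.88e-07), as was the adaptor gene Ldb2, at -2.63 ± 0.21 (adjusted p = 2.41e-06). The LIM-only genes thus did not share a direction. In somata labelled KO, Lmo1 was higher than in WT somata, at 105 ± 16.0 against 52.9 ± 7.83 CPM (log2 difference 0.98 ± 0.14, adjusted p = 0.00693), and it was the 1 call of this list by genotype.

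Cux1 and Cux2 encode homeodomain proteins known as markers of upper cortical layers, and both lie on chromosome 5 (minus strand, GRCm38 136248135 to 136567490 and 121856366 to 122050102). Cux1 was 49.1, 32.9, 44.9, 60.2 and 49.8 CPM in WT somata and 45.9, 36.7, 53.6, 50.9 and 38.4 CPM in somata labelled KO. Growth cone libraries gave 144, 145, 109, 105 and 94.2 CPM in WT and 120, 115, 116, 168 and 106 CPM in libraries labelled KO. Growth cones were higher without overlap, and the genotypes overlapped. The compartment difference was 1.38 ± 0.21 in WT (2.60-fold, adjusted p = 0.000234), and it was 1.55 ± 0.18 in libraries labelled KO (2.93-fold, adjusted p = 5.87e-05). Gene-level counts do not tell the 14 annotated Cux1 transcripts apart. Its exons share 394 bases with Gm16599 on the other strand, a gene with 0 counts in all libraries.

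Cux2 was scarce in somata, at 0.251, 1.46, 0.423, 6.43 and 1.38 CPM in WT and 6.74, 1.76, 0.0841, 1.93 and 0.0621 CPM in libraries labelled KO. The lowest of these rest on 8 counts in WT and on 2 and 4 counts in libraries labelled KO. In growth cones the values were 26.8, 35.9, 10.7, 24.0 and 13.5 CPM in WT and 21.7, 23.1, 17.8, 15.6 and 17.9 CPM in libraries labelled KO. Each soma group held 1 library well above its other 4, and still no soma library reached the lowest growth cone library. The compartment difference was 3.52 ± 0.86 in WT (adjusted p = 0.00593), and it was 3.26 ± 1.06 in libraries labelled KO (adjusted p = 0.0301). The call in libraries labelled KO was lost without growth cone library 8 (adjusted p = 0.0536), without soma library 15 (0.0678) or 25 (0.0650), and with no filter on low counts (0.0507), within a range of 0.00120 to 0.0678 over 16 alternatives.

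Cited2 encodes a transcriptional co-regulator that binds the acetyltransferases EP300 and CREBBP and is known to limit HIF1A activity. It lies on chromosome 10 (plus strand, GRCm38 17723218 to 17725674). It was 10.9, 12.8, 5.95, 20.7 and 7.46 CPM in WT somata and 23.3, 16.4, 12.3, 19 and 10.3 CPM in somata labelled KO. The growth cones held 77.4, 79.2, 80.1, 71.5 and 47.2 CPM in WT and 63.6, 77.4, 38.1, 82.4 and 33.0 CPM in libraries labelled KO. All growth cone libraries exceeded all soma libraries. The compartment difference was 2.67 ± 0.36 in WT (6.35-fold, adjusted p = 0.000100), and it was 1.93 ± 0.35 in libraries labelled KO (3.82-fold, adjusted p = 0.00107). Of 6 listed relatives and partners of Cited2, 5 were tested in WT and Hif1a alone passed, lower in growth cones by -1.47 ± 0.22 (adjusted p = 0.000214). In libraries labelled KO, Hif1a was again lower, at -1.56 ± 0.22 (adjusted p = 0.000186), while Cited1 was higher, at 3.75 ± 0.85 (adjusted p = 0.00453), and so was Cited4, at 4.85 ± 1.73 (adjusted p = 0.0438), a gene that did not pass the count filter within somata.

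Ptn encodes pleiotrophin, a secreted heparin-binding growth factor that promotes neurite outgrowth, and it lies on chromosome 6 (minus strand, GRCm38 36714929 to 36810220). It was 197, 217, 171, 189 and 154 CPM in WT somata and 151, 143, 132, 172 and 122 CPM in somata labelled KO. Growth cone values were 650, 610, 590, 477 and 542 CPM in WT and 661, 656, 442, 489 and 487 CPM in libraries labelled KO. Growth cones stood above somata without overlap, and 4 of 5 soma libraries labelled KO lay below all WT soma libraries. The compartment difference was 1.67 ± 0.14 in WT (3.19-fold, adjusted p = 2.51e-06), and it was 2.01 ± 0.16 in libraries labelled KO (4.02-fold, adjusted p = 3.45e-06).

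The other genes of pleiotrophin signalling were split. Of 6 ligand and receptor genes 5 were tested, and growth cones of each genotype had 2 higher and 2 lower. The sister ligand Mdk (midkine) was higher in WT growth cones by 4.47 ± 0.45 (adjusted p = 1.23e-05), and the receptor phosphatase Ptprz1 by 1.09 ± 0.23 (adjusted p = 0.00232). The syndecan Sdc3 was lower, at -1.29 ± 0.21 (adjusted p = 0.000364), as was Ncl (nucleolin), at -1.76 ± 0.17 (adjusted p = 1.03e-05). Ligands were higher and their binding partners went both ways.

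Inhba encodes the activin A subunit, a secreted ligand of the TGF-beta family, and lies on chromosome 13 (plus strand, GRCm38 16011851 to 16031621). It was 2.67, 6.93, 7.51, 6.17 and 2.12 CPM in WT somata and 7.06, 3.41, 5.57, 8.01 and 0.217 CPM in somata labelled KO. The growth cone libraries had 0, 9.28, 23.0, 8.82 and 15 CPM in WT and 0, 3.54, 2.11, 13.8 and 11.6 CPM in libraries labelled KO. Both growth cone libraries of experiment 7 had 0 counts, which allows up to 0.0998 CPM in WT and 0.124 CPM in the library labelled KO (3 counts, counting error only). The groups overlapped in every comparison. The compartment difference was 1.18 with a 95% interval of -1.16 to 3.53 in WT (adjusted p = 0.405), and it was 0.43 with an interval of -2.28 to 3.14 in libraries labelled KO (adjusted p = 0.817). Of 9 activin pathway genes, 1 was higher and 3 lower in WT growth cones. The type I receptor gene Acvr1b was higher by 1.48 ± 0.37 (adjusted p = 0.00685), and Acvr2a (-1.47 ± 0.28, adjusted p = 0.00116), Smad4 (-1.78 ± 0.37, adjusted p = 0.00236) and Smad2 (-0.69 ± 0.25, adjusted p = 0.0420) were lower. In libraries labelled KO 0 were higher and 2 lower, Smad4 (-2.73 ± 0.44, adjusted p = 0.000502) and Fst, which encodes the activin-binding protein follistatin (-3.90 ± 0.94, adjusted p = 0.00641). There Acvr1b was at 1.74 ± 0.81 and did not pass (adjusted p = 0.110).

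Dkk3 encodes a secreted glycoprotein of the Dickkopf family, whose other members bind WNT co-receptors, and lies on chromosome 7 (minus strand, GRCm38 112116017 to 112159057). It was 18.3, 21.4, 45.9, 81.5 and 109 CPM in WT somata and 87.8, 71.7, 101, 90.6 and 55.2 CPM in somata labelled KO. In growth cones it was 14.8, 41.7, 20.9, 12.4 and 34.2 CPM in WT and 23.4, 50.2, 54.2, 59.9 and 40.2 CPM in libraries labelled KO. Its means were lower in growth cones than in somata, with overlap in both genotypes. The difference was -1.11 ± 0.53 in WT (adjusted p = 0.110, and 0.0430 to 0.302 over the alternatives), and it was -0.75 ± 0.27 in libraries labelled KO (adjusted p = 0.0443). With all 20 libraries in the fit the WT difference was -1.15 and passed, at the lower end of that range. The call in libraries labelled KO was lost in 12 of 16 alternatives, among them upper-quartile scaling (-0.56, adjusted p = 0.132) and all 20 libraries in the fit (adjusted p = 0.144, the highest of a range from 0.0287). Of 8 Dickkopf, WNT co-receptor and Kremen genes 5 were tested in WT and 2 were higher in growth cones, Dkkl1 by 2.29 ± 0.59 (adjusted p = 0.00766) and Kremen1 by 5.08 ± 1.74 (adjusted p = 0.0332), while Dkk4 was at 0 in all 4 groups. In libraries labelled KO 1 of 5 was higher, Dkkl1 by 3.30 ± 0.92 (adjusted p = 0.0141). The Kremen1 level was 14.3 ± 11.5 CPM in WT growth cones, above the 0.429 ± 0.907 CPM of WT somata, but 2.37 ± 3.28 and 6.34 ± 4.01 CPM in those labelled KO, where the difference was -1.33 ± 1.52 (adjusted p = 0.527).

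Lpl encodes lipoprotein lipase, which frees fatty acids from lipoprotein triglycerides, and lies on chromosome 8 (plus strand, GRCm38 68880491 to 68907448). It was 2.98, 1.78, 6.28, 24.7 and 14.7 CPM in WT somata and 17.6, 17.2, 9.27, 18.2 and 17.4 CPM in somata labelled KO. Growth cone libraries stood at 40.3, 79.8, 46.1, 40.4 and 79.0 CPM in WT and 48.8, 71.7, 31.0, 28.4 and 20.9 CPM in libraries labelled KO. WT somata ranged 13.8-fold, more widely than the other groups, and growth cones were higher without overlap. The compartment difference was 2.55 ± 0.65 in WT (5.86-fold, adjusted p = 0.00713), and it was 1.42 ± 0.39 in libraries labelled KO (2.67-fold, adjusted p = 0.0128). The latter call was lost with all 20 libraries in the fit (adjusted p = 0.0570, the highest of a range from 0.000676). Of 6 genes for lipase maturation and lipoprotein uptake 5 were tested and 2 were lower in growth cones in both genotypes, the folding adaptor gene Sel1l (WT -2.07 ± 0.25, adjusted p = 4.89e-05) and the receptor gene Vldlr (WT -2.53 ± 0.34, adjusted p = 0.000111).

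Hspb3 encodes a small heat shock protein, a class that holds unfolded proteins in solution, and lies on chromosome 13 (minus strand, GRCm38 113662896 to 113663676). It was 4.73, 0.416, 1.01, 5.33 and 7.29 CPM in WT somata and 1.42, 2.05, 0.568, 1.41 and 1.65 CPM in somata labelled KO. In growth cones the level was 13.3, 6.73, 10.5, 17.8 and 20.3 CPM in WT and 0, 3.80, 8.34, 6.30 and 24.2 CPM in libraries labelled KO. In each genotype 4 of 5 growth cone libraries lay above every soma library. The difference was 1.92 ± 0.76 in WT (adjusted p = 0.0590), and it was 2.66 ± 1.21 in libraries labelled KO (adjusted p = 0.104). Without the library labelled KO that had 0 counts (experiment 7, a limit of 0.124 CPM) it was 2.94 with adjusted p = 0.00820 (up to 0.275 in other alternatives), and DESeq2 called it in both genotypes (adjusted p = 0.0136 and 0.0303). Of 6 other small heat shock genes 3 passed the count filter within somata, and these 3 (Cryab, Hspb6 and Hspb8) were higher in WT growth cones, led by Cryab (5.46 ± 0.37, adjusted p = 7.35e-07), and Cryab was the 1 called in libraries labelled KO (5.0 ± 0.42, adjusted p = 4.80e-06).

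Chn2 encodes beta-chimaerin, a GTPase-activating protein that switches Rac off, and lies on chromosome 6 (plus strand, GRCm38 54039554 to 54301810). It was 25.7, 31.4, 28.9, 31.1 and 54.4 CPM in WT somata and 58.2, 50.0, 41.1, 68.9 and 55.7 CPM in somata labelled KO. The growth cones gave 31.3, 6.69, 28.1, 45.6 and 29.2 CPM in WT and 50.2, 31.2, 18.5, 11.7 and 41.4 CPM in libraries labelled KO. The compartments overlapped in both genotypes, with a difference of -0.23 ± 0.43 in WT (adjusted p = 0.698), and it was -0.76 ± 0.37 in libraries labelled KO (adjusted p = 0.133). Without growth cone library 7 labelled KO the latter was -1.06 with adjusted p = 0.0383, and adjusted p ranged up to 0.254 over the alternatives. Among 6 genes for the related chimaerin, Rac, a Rac activator and guidance receptors, growth cones of either genotype had 1 higher and 3 lower. Rac3 was higher (WT 0.61 ± 0.20, adjusted p = 0.0271), and Rac1 (WT -1.21 ± 0.13, adjusted p = 1.83e-05), Plxna1 and Nrp1 were lower. Chn2 exons share 65 bases with Gm15527 and 552 bases with 9130019P16Rik on the other strand, which had 65 and 275 counts over all libraries against 23734 for Chn2. Strand use in counting was not given, so reads in the shared bases cannot be assigned to either gene.

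Other genes linked to callosal neurons and upper layers were counted in the same way. WT growth cones had 6 of 14 such genes higher and 1 lower, and libraries labelled KO had 4 higher and 2 lower. Btg1 (2.41 ± 0.23, adjusted p = 9.01e-06) and the homeobox gene Lhx2 (2.57 ± 0.32, adjusted p = 5.90e-05) had the lowest p in WT. Tmtc4 was lower in growth cones labelled KO, at -2.21 ± 0.50 (adjusted p = 0.00421). The median difference of the list was 1.11 in WT and -0.00058 in libraries labelled KO.

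**Figure D3:**
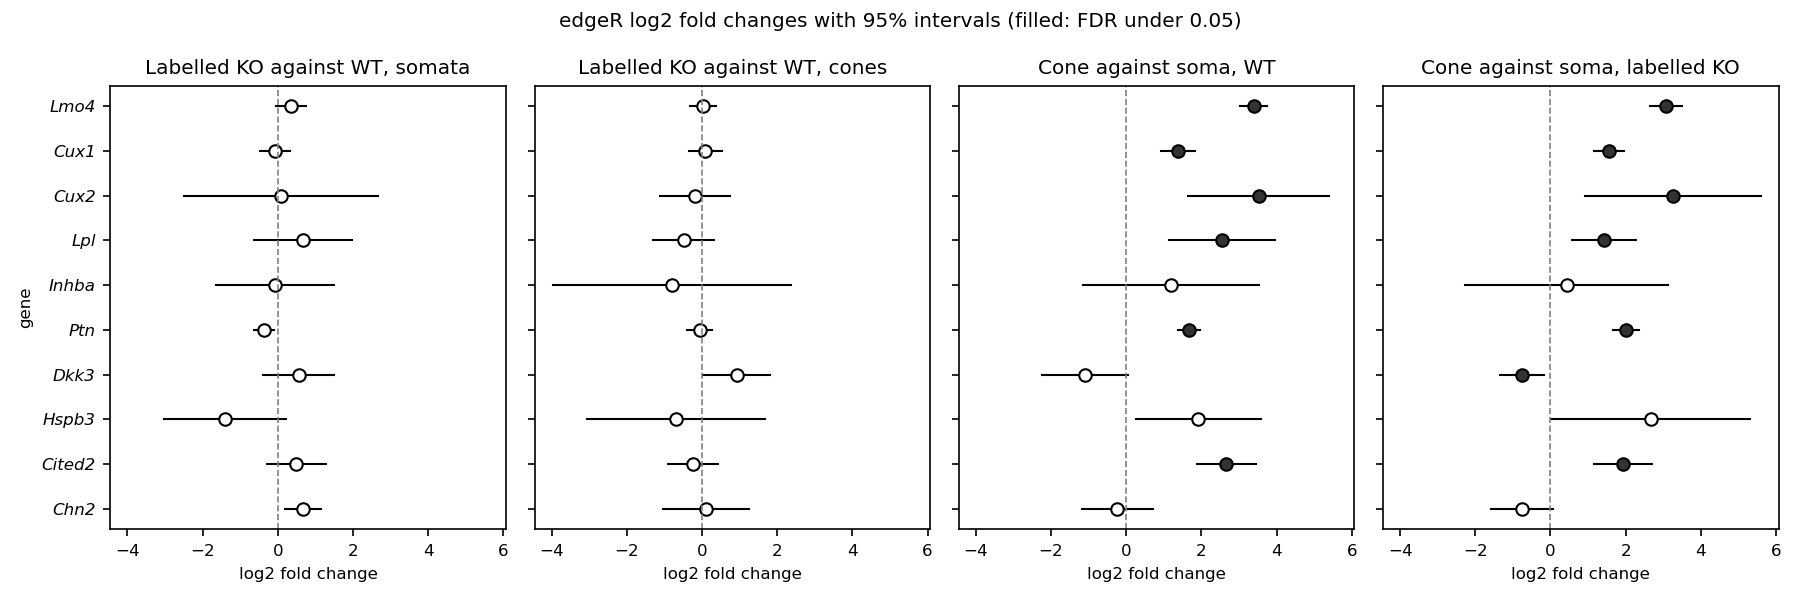
Log2 fold change of each callosal gene (horizontal) with its 95% interval in 4 comparisons, labelled KO against WT on the left and growth cone against soma on the right, filled where the adjusted p was under 0.05. Filled points are confined to the compartment panels, 6 in WT and 7 in libraries labelled KO.

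Genotype was then compared within each compartment. None of the 10 genes passed the test in somata, where 0.731% of all genes did, and the lowest adjusted p among them was 0.289. None had groups without overlap, against 3.17% of all genes. An unadjusted p under 0.05 was reached by 2 of the 10, Chn2 and Ptn, against 8.57% of all genes, and DESeq2 called none. Chn2 was 54.8 ± 10.3 CPM in somata labelled KO and 34.3 ± 11.5 CPM in WT somata (SD, n = 5), a log2 difference of 0.68 ± 0.22 (edgeR adjusted p = 0.289), and it was higher in 4 of 4 shared experiment numbers. Without WT soma library 26, the shallowest soma library, the difference was 0.90 and passed (adjusted p = 0.0452, the lowest of 17 alternatives that ranged up to 1.00).

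Ptn was 144 ± 19.3 CPM in somata labelled KO and 186 ± 24.0 CPM in WT somata, a log2 difference of -0.37 ± 0.12 (edgeR adjusted p = 0.311), and was lower in 4 of 4 shared numbers. The 95% intervals of the other genes differed in width. For Lmo4 the interval was -0.04 to 0.76 and for Cux1 it was -0.47 to 0.31, whereas for Cux2 it was -2.49 to 2.68 and for Hspb3 -3.03 to 0.23. For Lpl it was -0.64 to 1.96, for Inhba -1.64 to 1.5, for Dkk3 -0.38 to 1.5 and for Cited2 -0.29 to 1.28. The median over the 10 genes was 0.23, beside -0.0030 over all genes.

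Among the other callosal and upper-layer genes, 1 of 14 passed in somata, Limch1, an actin-binding protein gene, at 76.0 ± 16.1 CPM in libraries labelled KO against 29.9 ± 6.31 CPM in WT (1.34 ± 0.19, adjusted p = 0.00653). Some markers of other neurons moved with genotype in the same libraries. Interneuron markers summed to 410 to 545 CPM in somata labelled KO, against 122 to 202 CPM in WT. Npy made up most of both sums, at 471 ± 48.3 of a mean 504 CPM in somata labelled KO and 113 ± 26.5 of 149 CPM in WT. It was the 1 of 8 tested interneuron genes that passed (2.06 ± 0.15, adjusted p = 0.000196), so the sum does not describe the other interneuron genes. Of 10 subcerebral markers 3 were higher and 2 lower, among them Etv1 (1.73 ± 0.23, adjusted p = 0.00475) and Crym (-2.20 ± 0.31, adjusted p = 0.00600). Of 7 tested corticothalamic markers 2 were higher and 1 lower, among them Tle4 (1.80 ± 0.26, adjusted p = 0.00693). Glial, microglia and vessel lists had 0 calls. Their median log2 differences were 0.69 for astrocyte and radial glia markers and 0.11 for oligodendrocyte markers. They were 0.50 for microglia markers and 0.67 for vessel and blood markers, beside the 0.23 of the callosal genes. The part of these other genes in the levels of the callosal genes was not tested.

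In growth cones 0 of the 10 genes passed by genotype (all adjusted p = 0.999), where edgeR called 0 of all 15419 genes tested (0%) and 2.13% had an unadjusted p under 0.05. DESeq2 called 11 genes there, none of them a callosal gene. None of the 10 had groups without overlap, against 0.532% of all genes. The 1 callosal gene with an unadjusted p under 0.05 was Dkk3, at 45.6 ± 14.3 CPM in libraries labelled KO and 24.8 ± 12.7 CPM in WT (0.92 ± 0.41, edgeR adjusted p = 0.999), higher in 5 of 5 shared experiment numbers. The 95% interval was -0.32 to 0.38 for Lmo4, -0.39 to 0.28 for Ptn and -0.34 to 0.53 for Cux1, and -3.97 to 2.37 for Inhba and -3.06 to 1.69 for Hspb3.

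Whether the genotype difference itself differed between compartments was tested over all 20 libraries. None of the 10 genes passed (adjusted p 0.914 to 1.00), beside 0.0397% of all genes tested. None reached an unadjusted p under 0.05, against 6.98% of all genes, and DESeq2 called none of the 10. The lowest p was that of Cited2, with a difference of differences of -0.76 ± 0.48 (edgeR adjusted p = 0.914). A genotype comparison and a compartment comparison share a group of libraries, so agreement between their values is not given as a result. The compartment comparisons in WT and in libraries labelled KO share no library. In each of them compartment cannot be told apart from tissue or experiment number.

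**Figure D4:**
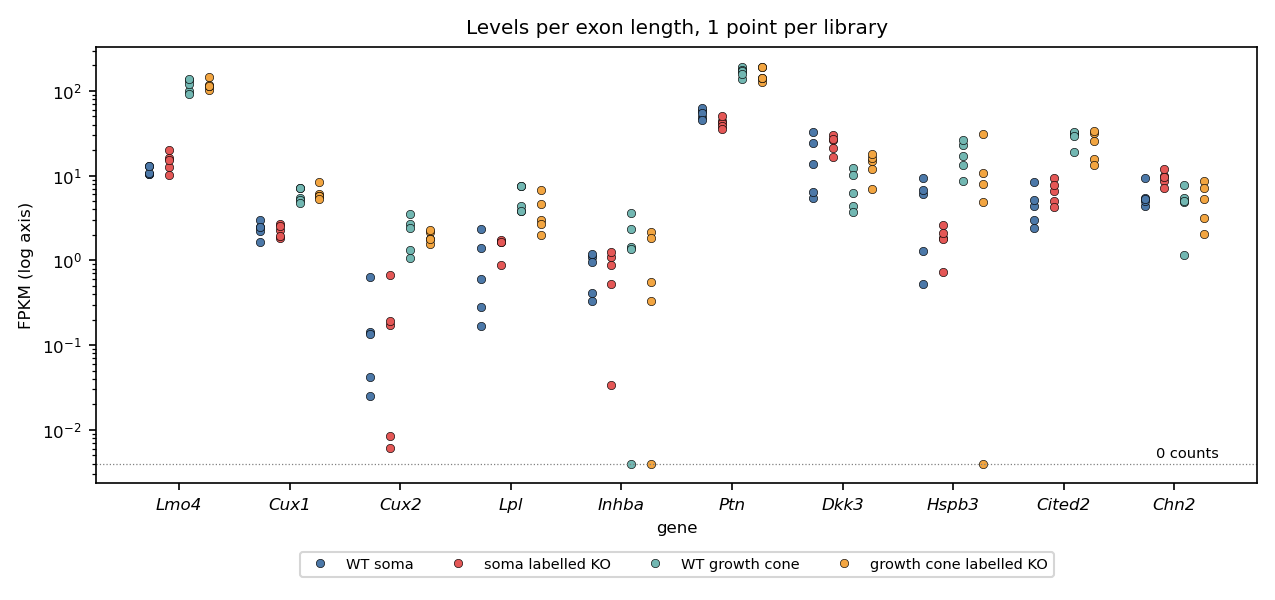
Level per exon length (FPKM, log axis) of the 10 genes, with 1 point per library and colours for the 4 groups, and libraries with 0 counts drawn on the dotted line. Ptn is at the top in each group by its mean, and Cux2 and Inhba are at the bottom.

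Levels were compared between genes per exon length, as FPKM on a linear scale. That length covers all annotated exons of a gene, 20024 bases for Cux1 with 14 transcripts and 781 for Hspb3 with 1. FPKM are lowered where the RNA holds only part of those exons, so the order between genes depends on the length used. In WT somata Ptn led at 54.1 ± 7.0 FPKM, followed by Dkk3 at 16.4 ± 11.7 and Lmo4 at 11.5 ± 1.40 FPKM, and Cux2 was lowest at 0.197 ± 0.252 FPKM. Ptn was above Dkk3 without overlap, while the ranges of Dkk3 and Lmo4 overlapped, and so did those of each neighbouring pair from Chn2 (5.90 ± 1.97 FPKM) down to Cux2. In somata labelled KO the first 3 were the same, with Ptn at 42.0 ± 5.62 FPKM, Dkk3 at 24.2 ± 5.33 and Lmo4 at 14.9 ± 3.77. In WT growth cones Ptn (167 ± 19.4 FPKM) and Lmo4 (117 ± 21) led with overlapping ranges, both above Cited2 (28.9 ± 5.60) without overlap, and Dkk3 came after Hspb3 at 7.38 ± 3.77 FPKM. In growth cones labelled KO the order began with Ptn (159 ± 30.2), Lmo4 (119 ± 16.9) and Cited2 (24.0 ± 9.15 FPKM), and ended with Cux2 (1.91 ± 0.307) and Inhba (0.972 ± 0.957).

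The spread between libraries differed among the genes. The coefficient of variation over WT somata was 12.1% for Lmo4 and 13.0% for Ptn, against 128% for Cux2 and 95.1% for Lpl. In WT growth cones it was 11.6% for Ptn and 75.7% for Inhba. Over the 10 soma libraries the log2 level of Chn2 was most like that of Nans (Pearson r = 0.957), Tstd3 (0.926) and Elmo1 (0.915) among 10367 genes searched. Ptn was most like Neto1 (0.940), Gas7 (0.926) and Kcnt1 (0.903), and Lmo4 most like Glul (0.914), Rbbp9 (0.889) and Terf2 (0.883). These 3 genes were taken for their low p by genotype in somata, the libraries share that split, and the coefficients are descriptions.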

How the data were processed

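Per the labels' protocols, total RNA was turned into cDNA by SMART-seq v4 and into libraries by Nextera XT. The deposited values are raw counts per gene, and the submitters' processing notes list Trimmomatic 0.39, STAR 2.7.1a, featureCounts 1.5.0 and the build GRCm39. The exon coordinates in the deposited table are nevertheless those of GRCm38. They equal the GENCODE M21 exons for 54435 of 55487 genes (98.1%), and symbols came from that release. Strand use and the treatment of multimapping reads are not given in the sources used here. The table holds 0 columns unmatched to a sample. Libraries were grouped by title, and no pair within a group was alike within sampling noise (lowest chi-square per degree of freedom 52.7).

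Counts were tested in edgeR 4.0.16 (R 4.3.3) with filterByExpr (minimum count 10), TMM and the quasi-likelihood test over all genes, with Benjamini-Hochberg adjustment and a threshold of 0.05, on the groups compared, or on all 20 libraries for the interaction. All adjusted p-values are from it unless DESeq2 1.42.0 is named. Fold changes are those of the edgeR fit at its default prior count, and SE and 95% intervals follow from the F statistics. The log2 levels used for likeness and for the pairing check carry a prior count of 2. The procedure was tested on simulated data in which 200 genes were changed by 2 on the log2 scale. It recovered 52.5% of them by genotype in somata, 55% in growth cones and 29.5% for the interaction. Between compartments it recovered 55.5% in WT and 45% in libraries labelled KO. A gene that did not pass may therefore still differ. The simulated mean and spread of each gene were estimated over all 20 libraries and used in every comparison. Spearman correlations between real libraries were 0.931 to 0.968 among somata and 0.752 to 0.877 among growth cones. The recovered shares thus do not describe the spread of somata or of growth cones alone. CPM, their sums over lists and the limits at 0 counts carry TMM factors of all 20 libraries, and FPKM divide them by the exon length in the table. The protocol names no molecular identifiers, so count limits cover counting error only.

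The 10 genes, taken by name, and the other lists were chosen with earlier results of these data known. From each other list at most 4 genes per comparison were named, those past the threshold with the lowest p; a gene that this rule names is not reported here. For likeness, the 3 callosal genes with the lowest p in somata and genes of at least 5 CPM were used. Alternatives were DESeq2 size factors, upper-quartile scaling, library totals, DESeq2, no filter, all libraries in the fit, a replicate block and leaving out each library. A fit without the growth cone libraries of experiment 7 was added after the data were seen.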

Additional observations from a re-analysis of the deposited data

Results flagged for a closer look

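In 6 of the 40 gene-by-group sets of 5 libraries, 1 library lay apart from the other 4 (its gap to the nearest library, divided by the whole range, exceeded 0.71). Chance flags about 1 set in 20 if values follow a normal distribution. Whether the CPM follow it was not tested, so the 6 of 40 are not set against that rate. Cux1 was 168 CPM in growth cone library 10 labelled KO, with the nearest library at 120 CPM. Cux2 was 6.43 CPM in WT soma library 25 (nearest 1.46 CPM) and 6.74 CPM in soma library 14 labelled KO (nearest 1.93 CPM). Lpl was low, at 9.27 CPM, in soma library 22 labelled KO (nearest 17.2 CPM). Cited2 was low, at 47.2 CPM, in WT growth cone library 11 (nearest 71.5 CPM). Chn2 was 54.4 CPM in WT soma library 26 (nearest 31.4 CPM), the library whose absence brought Chn2 past the threshold by genotype. The causes were not tested.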

How the results depend on the processing

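The calls of Lmo4, Cux1, Ptn and Cited2 between compartments held in all 16 alternatives in each genotype, as did those of Cux2 and Lpl in WT. By genotype in somata, all genes called numbered 109, and 402 with DESeq2, 30 with all 20 libraries in the fit, 34 with the replicate block and 67 to 107 with 1 library left out (67 without library 22 labelled KO, 68 without WT library 22). Callosal genes called there were 0 to 1, the 1 being Chn2 without WT library 26. In growth cones all genes called numbered 0, and 11 with DESeq2 and 7 with all 20 libraries. For the interaction they numbered 7, and 273 with DESeq2, 0 with the replicate block, 12 without the growth cones of experiment 7 and 5 to 12 with 1 library left out (11 without growth cone library 7 labelled KO, 12 without WT growth cone library 7). The Bcl11b difference in somata was 0.72 with all 20 libraries in the fit and 0.68 with the block, neither past the threshold. In growth cones it was -0.016 with the block and -0.11 to 0.15 with 1 library left out. The causes of these shifts were not tested.

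Uncalled genotype differences changed sign in some fits. With the block in somata, Cux1 was 0.029 and Cux2 -1.67, and with 1 library left out Cux1 was -0.18 to 0.024, Cux2 -1.05 to 1.27 and Inhba -0.32 to 0.24. In growth cones with 1 library left out, Lmo4 was -0.049 to 0.12, Cux1 -0.067 to 0.17, Cux2 -0.37 to 0.021, Ptn -0.14 to 0.019 and Chn2 -0.16 to 0.36, and Chn2 was -0.10 without experiment 7. Between compartments, Chn2 in WT was -0.44 to 0.033 and Inhba in libraries labelled KO -0.11 to 0.70. For the interaction, Cux2 was 1.53 and Hspb3 -0.46 with the block, and with 1 library left out Cux2 was -1.47 to 0.84, Dkk3 -0.033 to 0.57 and Hspb3 -0.17 to 1.04.

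Experiment numbers shared by the genotypes did not meet the criterion for pairing, a correlation over 0.1 in every pair. The deviations of same-numbered libraries correlated at 0.0208 to 0.105 in growth cones, where 5 of 5 libraries matched their own number best, and at 0.00565 to 0.131 in somata, where 2 of 4 did. Depth was least for Cux2, with as few as 2 counts in a soma library, and for Inhba and Hspb3, which had libraries at 0 counts; the part of counting error in their spread was not tested.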
